A study of Mus musculus with 30 samples.

Results

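The Schlafen genes of the mouse form a family that lies in one cluster on chromosome 11. The 6 genes described here, Slfn1, Slfn2, Slfn4, Slfn5, Slfn8 and Slfn9, were chosen by symbol, and all 6 are among the 18975 genes of the deposited expression table. All 6 also passed the filter on low values (log2 above 0 in 3 or more libraries), as did 15002 genes in all. Schlafen genes are best known as interferon-induced genes of immune cells. Type I interferon acts through its receptor, JAK kinases and a complex of transcription factors that binds a DNA element called the ISRE, while interferon-γ acts mainly through factors that bind the GAS element. The proteins fall into short forms (Slfn1 and Slfn2), an intermediate form (Slfn4, with its neighbour Slfn3) and long forms that carry a helicase-like part (Slfn5, Slfn8 and Slfn9).

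RNA was sequenced from 30 subcutaneous B16F10 tumors, a melanoma line of C57BL/6 origin, grown in female C57BL/6 mice. HET hosts carry 1 copy of ARE-del, an allele of Ifng without the AU-rich element that limits its mRNA, and the hosts titled WT, labelled ARE-del +/+, are read here as wild type. The allele is a host allele, so the injected melanoma cells of every group lack it. From day 7 the mice received, 2 times a week, 0.25 mg of anti-PD1 and 0.25 mg of agonist anti-CD40 together (the combination), 0.25 mg of anti-CD40, 0.25 mg of anti-PD1, or control rat IgG2A. HET hosts gave 4 combination, 4 anti-CD40, 3 anti-PD1 and 4 IgG libraries, and WT hosts gave 3 combination, 3 anti-CD40, 4 anti-PD1 and 5 IgG libraries. The labels do not say that replicates come from separate animals, so the p-values measure only the spread between these samples, which may be technical. In a bulk tumor, fewer cells of a type and less RNA per cell cannot be told apart.

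By the mm10 annotation (GENCODE vM21), all 6 are protein-coding genes of chromosome 11. Slfn5 (ENSMUSG00000054404.8, chr11:82951349-82964840) lies on the plus strand. Slfn9 (ENSMUSG00000069793.7, chr11:82978390-82991830) and Slfn8 (ENSMUSG00000035208.11, chr11:83002158-83020810) follow on the minus strand. Slfn2 (ENSMUSG00000072620.3, chr11:83065112-83070678), Slfn1 (ENSMUSG00000078763.2, chr11:83116849-83122670) and Slfn4 (ENSMUSG00000000204.11, chr11:83175186-83190216) lie on the plus strand. The antisense genes Slfn5os and Gm20234 overlap Slfn5 and Slfn2. The counting is not stated to use strand, so reads of each pair cannot be told apart here.

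Promoters from 250 bases before to 50 bases after each RefSeq start (GRCm38.p6) were found for all 6 genes, 7 promoters in all because Slfn8 has 2 starts. They were searched on both strands for 3 motifs, chosen after expression values had been seen. The ISRE letters GAAANNGAAA (reverse complement TTTCNNTTTC) stood in 4 of the 7 promoters, those of Slfn5, Slfn9 and both starts of Slfn8, against 3.44% of all 32851 promoters of this length. The 3 windows below are shown because they are the only ISRE matches of the family, with the match in capitals, 5′ to 3′ along the strand of the gene.
Slfn5, chr11:82951937-82951966, plus strand: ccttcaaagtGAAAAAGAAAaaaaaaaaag
Slfn9, chr11:82991856-82991885, minus strand: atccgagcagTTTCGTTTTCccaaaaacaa
Slfn8, chr11:83020839-83020868, minus strand: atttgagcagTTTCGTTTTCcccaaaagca
The match ran from base -155 to base -146 from the start in Slfn5 and from -45 to -36 in Slfn9. In Slfn8 it ran from -48 to -39 of one start, which is from -136 to -127 of the other. The Slfn8 and Slfn9 windows were identical at 25 of 30 bases, and the whole promoters around these starts were 80.7% identical (246 of 305 alignment columns). The other Slfn promoter pairs were between 43.0% and 49.1% identical. The promoters of Slfn1, Slfn2 and Slfn4 held no ISRE letters in this window. The GAS letters TTCNNNGAA stood in 0 of the 7 promoters, against 8.30% of all promoters, and the PU.1 box letters GAGGAAGT (reverse complement ACTTCCTC) in 0 of 7, against 3.20%. A match of letters is a description, not a binding site.

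Near-identical stretches limit how firmly reads can be given to 1 member. Of the 50-base windows of its transcripts, Slfn8 shared 9.30% with Slfn9 and 10.1% with the pseudogene Slfn10-ps. Slfn9 shared 6.52% with Slfn8 and 8.10% with Slfn10-ps, and Slfn4 shared 6.28% with Slfn3. With any other gene Slfn8, Slfn9 and Slfn4 shared 14.6%, 11.5% and 10.8%, and Slfn2, Slfn5 and Slfn1 shared 4.27%, 3.37% and 0.606%. Of the 100-base windows, Slfn8 shared 1.17% with Slfn9, and Slfn9 shared 0.84% with Slfn8. How shared reads were assigned and the read length are not given in the sources used here. The split between Slfn8 and Slfn9 is therefore uncertain, to an extent not known here.

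The libraries held 17.6 to 36.0 M reads (median 24.9 M), recovered from the deposited log2 values as whole reads within 0.01 reads for 100% of values. One read was worth 0.0276 to 0.0596 CPM (read counts scaled to library size). Melanocyte genes summed to 19750 to 58250 CPM over the libraries, so the labelled melanoma is present throughout. A few libraries stood apart. HET IgG replicate 2 had 6.53% of reads from mitochondrial genes, and WT anti-CD40 replicate 2 and HET anti-CD40 replicates 4 and 3 had the highest scores (mean log2 value over a gene list) of 12 keratinocyte genes, 6.03, 4.80 and 4.45. Each library also has an L number in its label, whose meaning is not stated. No number holds both a HET and a WT library of the same treatment. The L number and the host genotype therefore cannot be told apart within a treatment. L5 shares a group with L6 only through WT anti-PD1 replicate 4. L6 shares a group with L7 or L8 only through HET IgG replicate 1. With the L number as a covariate, each difference between hosts rests on 1 or both of these libraries.

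Slfn2 and Slfn9 were the most abundant of the 6 genes. Per kilobase of exon, the mean over all 30 libraries was 3.90 CPM per kb for Slfn2, 3.82 for Slfn9, 1.03 for Slfn5, 0.609 for Slfn8, 0.594 for Slfn1 and 0.498 for Slfn4. One of the pair ranked first in 30 of 30 libraries. Slfn2 ranked above Slfn9 in 9 libraries: 2 of 4 HET combination, 2 of 4 HET anti-CD40, 1 of 4 HET IgG, 1 of 3 WT anti-CD40, 2 of 4 WT anti-PD1 and 1 of 5 WT IgG. The set of 6 genes therefore differed in make-up between tumors, with Slfn9 supplying 4.39% to 70.1% of its summed CPM per kb and Slfn2 9.36% to 81.0%. Slfn3, which is not among the 6, averaged 2.13 CPM per kb over the 30 libraries and is left out of these ranks, shares and sums. The sum over the 6 genes was 15.2 ± 6.19 CPM per kb in HET combination tumors and 16.4 ± 7.31 in HET anti-CD40 tumors (SD, n = 4 each). It was 7.27 ± 2.49 in HET anti-PD1 tumors (SD, n = 3) and 7.95 ± 3.84 in HET IgG tumors (SD, n = 4). In WT hosts it was 8.84 ± 1.76 (combination), 8.08 ± 1.45 (anti-CD40), 10.04 ± 2.65 (anti-PD1) and 8.62 ± 5.06 CPM per kb (IgG; SD, n = 3, 3, 4 and 5).

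**Figure D1:**
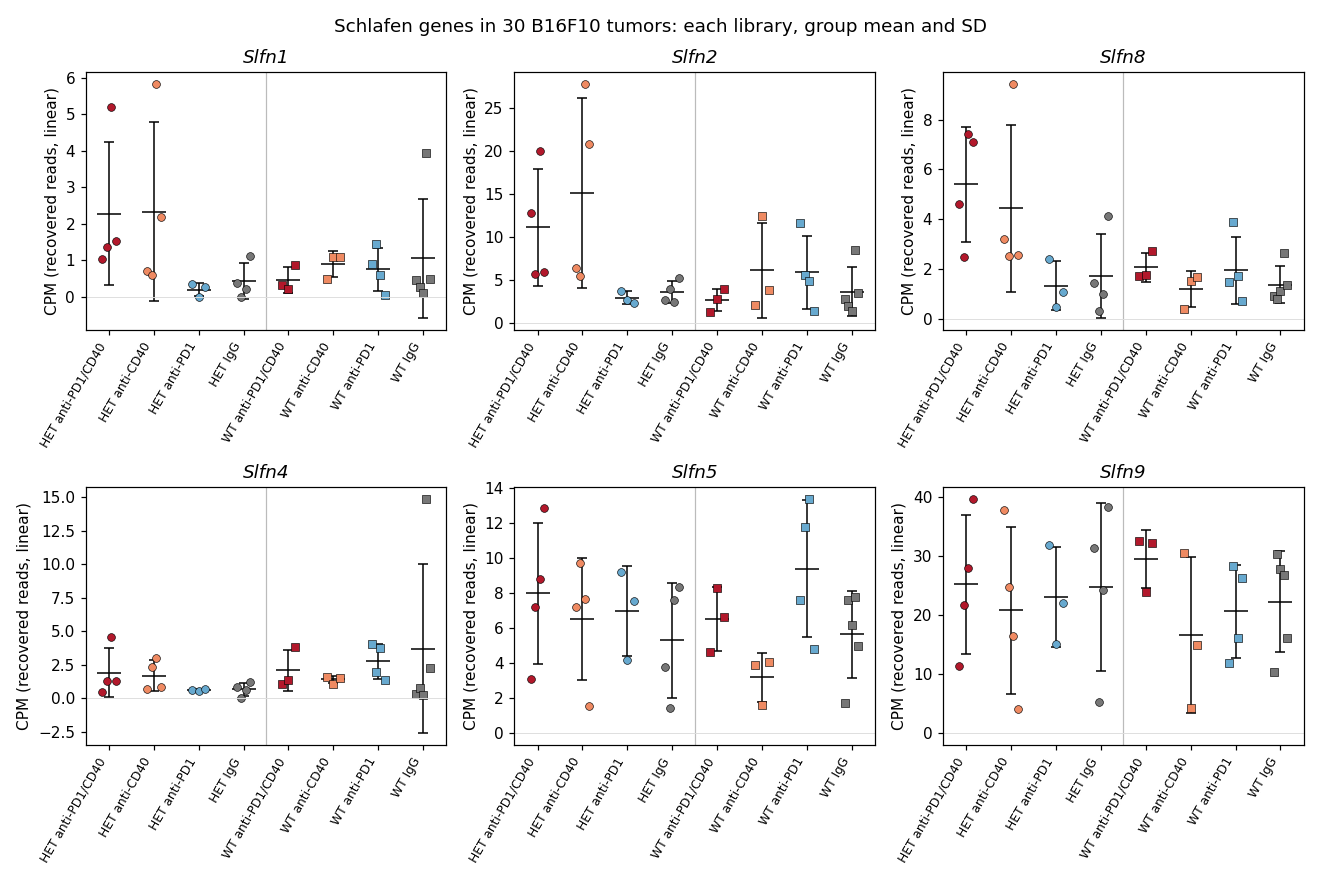
CPM of each Schlafen gene (y axis, linear) in the 8 groups (x axis), with 1 point per library, circles for HET and squares for WT hosts. Long bars mark the group mean and whiskers the SD. Slfn1, Slfn2 and Slfn8 have their highest group means in the HET anti-CD40 and HET combination groups. Only Slfn2 in those groups lies clear of the IgG group of the same host, and each treated group of the other genes overlaps it.

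Slfn2 is a short family member that keeps T cells and monocytes quiescent in mice. It had 12.8, 5.61, 20.0 and 5.91 CPM in HET combination tumors, and 6.33, 5.43, 27.8 and 20.8 CPM in HET anti-CD40 tumors, against 2.65, 3.88, 2.41 and 5.24 CPM in HET IgG tumors. Every library of both treated groups was above every HET IgG library, the nearest being 5.43 CPM with anti-CD40 and 5.24 CPM with IgG. HET anti-PD1 tumors had 3.70, 2.66 and 2.23 CPM and lay within the HET IgG range or just below it. In WT hosts Slfn2 had 1.21, 2.80 and 3.87 CPM with the combination, 2.04, 12.4 and 3.83 CPM with anti-CD40, and 11.6, 5.57, 4.85 and 1.38 CPM with anti-PD1, against 2.71, 1.90, 1.36, 8.46 and 3.49 CPM with IgG. These 4 WT groups overlapped. The high WT libraries were 1 each of anti-CD40 (replicate 2), anti-PD1 (replicate 1) and IgG (replicate 4).

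Slfn1, the other short member, slows T cell growth when overexpressed in mice. It was scarce, with 884 reads over all libraries and no read in HET anti-PD1 replicate 2 and HET IgG replicate 2. A count of 0 allows up to 3 reads, which covers counting error only. Slfn1 had 1.05, 1.35, 5.20 and 1.52 CPM in HET combination tumors, and 0.720, 0.587, 5.85 and 2.20 CPM in HET anti-CD40 tumors, against 0.393, 0, 0.227 and 1.13 CPM in HET IgG tumors. Replicate 3 was the highest library of each treated group, as it was for Slfn2. The lowest combination library (1.05 CPM) lay under the highest IgG library (1.13 CPM), so these groups overlapped by that pair. The anti-CD40 libraries at 0.720 and 0.587 CPM also lay under that IgG library. HET anti-PD1 tumors had 0.343, 0 and 0.260 CPM. In WT hosts Slfn1 had 0.326, 0.203 and 0.879 CPM with the combination, 0.500, 1.10 and 1.09 CPM with anti-CD40, and 0.905, 1.46, 0.606 and 0.0475 CPM with anti-PD1, against 0.460, 0.265, 0.113, 3.96 and 0.476 CPM with IgG. WT IgG replicate 4 was the highest WT library.

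Slfn8, a long member induced by interferon, had 4.61, 2.49, 7.43 and 7.09 CPM in HET combination tumors, and 3.22, 2.53, 9.45 and 2.58 CPM in HET anti-CD40 tumors, against 1.44, 0.298, 0.999 and 4.15 CPM in HET IgG tumors. IgG replicates 1 to 3 lay below every treated library, and IgG replicate 4 lay inside both treated ranges. HET anti-PD1 tumors had 2.40, 0.487 and 1.08 CPM. In WT hosts Slfn8 had 1.72, 1.74 and 2.74 CPM with the combination, 0.375, 1.53 and 1.68 CPM with anti-CD40, and 1.46, 3.87, 1.73 and 0.713 CPM with anti-PD1, against 0.919, 0.796, 1.13, 2.65 and 1.38 CPM with IgG. The WT anti-CD40 libraries were all below the HET anti-CD40 ones.

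Slfn4, the intermediate member, is known in mice as a gene of activated myeloid cells. It had 0.508, 1.27, 4.57 and 1.32 CPM in HET combination tumors, 0.682, 2.31, 2.98 and 0.827 CPM in HET anti-CD40 tumors and 0.610, 0.532 and 0.668 CPM in HET anti-PD1 tumors, against 0.819, 0.0596, 0.636 and 1.24 CPM in HET IgG tumors. Each treated HET group overlapped HET IgG. In WT hosts it had 1.07, 1.38 and 3.80 CPM with the combination, 1.62, 1.10 and 1.52 CPM with anti-CD40, and 4.05, 1.94, 3.73 and 1.38 CPM with anti-PD1, against 0.322, 0.796, 0.283, 14.9 and 2.28 CPM with IgG. The 14.9 CPM of WT IgG replicate 4 was the highest Slfn4 value of all libraries. In that library the score of 7 neutrophil genes was 3.37, against -1.71 to 1.46 in the other WT IgG libraries. HET anti-CD40 replicate 4 and WT anti-CD40 replicate 2 also had high neutrophil scores, 2.58 and 3.35, with 0.827 and 1.10 CPM of Slfn4. The part of neutrophils in the Slfn4 values was not tested.

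Slfn5 and Slfn9 are both long members, and Slfn5 is induced by type I interferon. Slfn5 had 3.11, 7.18, 8.78 and 12.8 CPM in HET combination tumors, 7.20, 9.72, 7.65 and 1.53 CPM in HET anti-CD40 tumors and 9.20, 4.17 and 7.57 CPM in HET anti-PD1 tumors, against 3.77, 1.43, 7.63 and 8.37 CPM in HET IgG tumors. In WT hosts Slfn5 had 4.61, 8.26 and 6.61 CPM with the combination, 3.91, 1.58 and 4.06 CPM with anti-CD40, and 7.58, 11.8, 13.4 and 4.80 CPM with anti-PD1, against 1.70, 7.61, 6.17, 7.76 and 4.97 CPM with IgG. Every treated group overlapped its IgG group for Slfn5. Slfn9 had 11.4, 21.6, 28.001 and 39.7 CPM in HET combination tumors, 37.8, 24.7, 16.4 and 4.04 CPM in HET anti-CD40 tumors and 31.9, 15.1 and 22.1 CPM in HET anti-PD1 tumors, against 31.3, 5.19, 24.2 and 38.4 CPM in HET IgG tumors. In WT hosts it had 32.5, 23.9 and 32.3 CPM with the combination, 30.5, 4.26 and 14.996 CPM with anti-CD40, and 11.8, 28.3, 16.1 and 26.3 CPM with anti-PD1, against 10.3, 30.3, 27.9, 26.7 and 16.1 CPM with IgG. The 3 lowest Slfn9 libraries were HET anti-CD40 replicate 4, WT anti-CD40 replicate 2 and HET IgG replicate 2, which were also the 3 lowest for Slfn5 and are among the libraries that stood apart.

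Within each gene the 8 group means form an order of 7 neighbouring pairs, 42 over the family. In 41 of them the neighbours differed by less than the larger of their SDs. The other pair was Slfn4 in WT anti-CD40 and HET IgG tumors, at 1.42 ± 0.277 CPM (n = 3) and 0.690 ± 0.491 CPM (SD, n = 4). Slfn2 averaged 11.1 ± 6.80 CPM in HET combination and 15.1 ± 11.0 CPM in HET anti-CD40 tumors, against 3.54 ± 1.30 CPM in HET IgG tumors (SD, n = 4 each). Slfn8 averaged 5.40 ± 2.32 and 4.44 ± 3.35 CPM in the same treated groups, against 1.72 ± 1.68 CPM in HET IgG tumors.

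Each member was tested in 13 comparisons with limma on the deposited log2 values of all genes kept. No gene passed a Benjamini-Hochberg adjusted p of 0.05 in any comparison with limma, nor with limma's voom on the recovered reads. The count at an unadjusted p under 0.05 was 62 to 2230 genes with limma and 54 to 2172 with voom. The smallest adjusted p of a member was 0.249. Log2 differences are given below, with limma's standard error, for the 24 of 78 member results with an unadjusted p under 0.05 or a difference of at least 1. The other 54 lay between -0.90 and 0.95, with no unadjusted p under 0.162.

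The treatments were compared with IgG within HET hosts, which asks what each antibody went with in hosts of the altered Ifng allele. With the combination, all 6 members stood higher than in HET IgG tumors, with a median log2 difference of 1.42, against -0.0033 for all genes. Slfn1 stood higher by 2.48 ± 0.91 (limma, adjusted p = 0.379), Slfn8 by 1.99 ± 0.63 (limma, adjusted p = 0.316) and Slfn2 by 1.49 ± 0.64 (limma, adjusted p = 0.451). These 3 had an unadjusted p under 0.05 and were higher, as were 6.46% of all genes. Slfn4 stood at 1.36 ± 0.85 (limma, adjusted p = 0.609). Slfn2 was the 1 member whose groups did not overlap, against 3.63% of all genes higher without overlap.

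Anti-CD40 alone was compared with the same HET IgG libraries. Slfn1 stood higher by 2.25 ± 0.91 (limma, adjusted p = 0.274), Slfn2 by 1.79 ± 0.64 (limma, adjusted p = 0.249) and Slfn8 by 1.59 ± 0.63 (limma, adjusted p = 0.266). These 3 had an unadjusted p under 0.05 and were higher, against 8.12% of all genes. Slfn4 stood at 1.35 ± 0.85 (limma, adjusted p = 0.433). Slfn2 was again the 1 member without overlap, against 3.23% of all genes. Over the 6 members 5 were higher, with a median of 1.47, against -0.0066 for all genes. Slfn3, not among the 6, stood at -0.625 ± 0.345 with anti-CD40 (limma, adjusted p = 0.376). With the combination it was at -0.356 ± 0.345 (limma, adjusted p = 0.750). Both comparisons share the 4 HET IgG libraries.

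Single libraries and covariates moved these differences. Without HET IgG replicate 2 the differences with anti-CD40 were 1.55 for Slfn1, 1.01 for Slfn8 and 0.66 for Slfn4, and that of Slfn4 with the combination was 0.67. Without HET combination replicate 3 the Slfn4 difference with the combination was 0.82. Without the 4 libraries that stood apart they were 0.38 (Slfn1), 0.84 (Slfn2) and 0.62 (Slfn8), and those with the combination were 1.78 (Slfn1), 1.55 (Slfn2) and 1.40 (Slfn8). With the L number in the model, the combination differences were 1.49, 0.76 and 1.47 for Slfn1, Slfn2 and Slfn8, and the anti-CD40 differences 2.55, 1.76 and 1.76. Within the number L7, the mean log2 of 3 anti-CD40 libraries minus that of 2 IgG libraries was 3.23 (Slfn1), 1.67 (Slfn2), 2.77 (Slfn8), 2.49 (Slfn4), 1.26 (Slfn5) and 1.14 (Slfn9). The L7 IgG libraries include HET IgG replicate 2, which stood apart. Within L8, 1 anti-CD40 library against 1 IgG library gave 0.91 (Slfn1), 1.97 (Slfn2), -0.67 (Slfn8), -0.55 (Slfn4), -2.39 (Slfn5) and -3.22 (Slfn9). The mean of 4 combination libraries minus the same IgG library was 0.67 (Slfn1), 0.86 (Slfn2), 0.26 (Slfn8), 0.19 (Slfn4), -0.24 (Slfn5) and -0.74 (Slfn9). Combination replicate 1 lay below that IgG library for Slfn1, and combination replicate 2 for Slfn8.

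**Figure D2:**
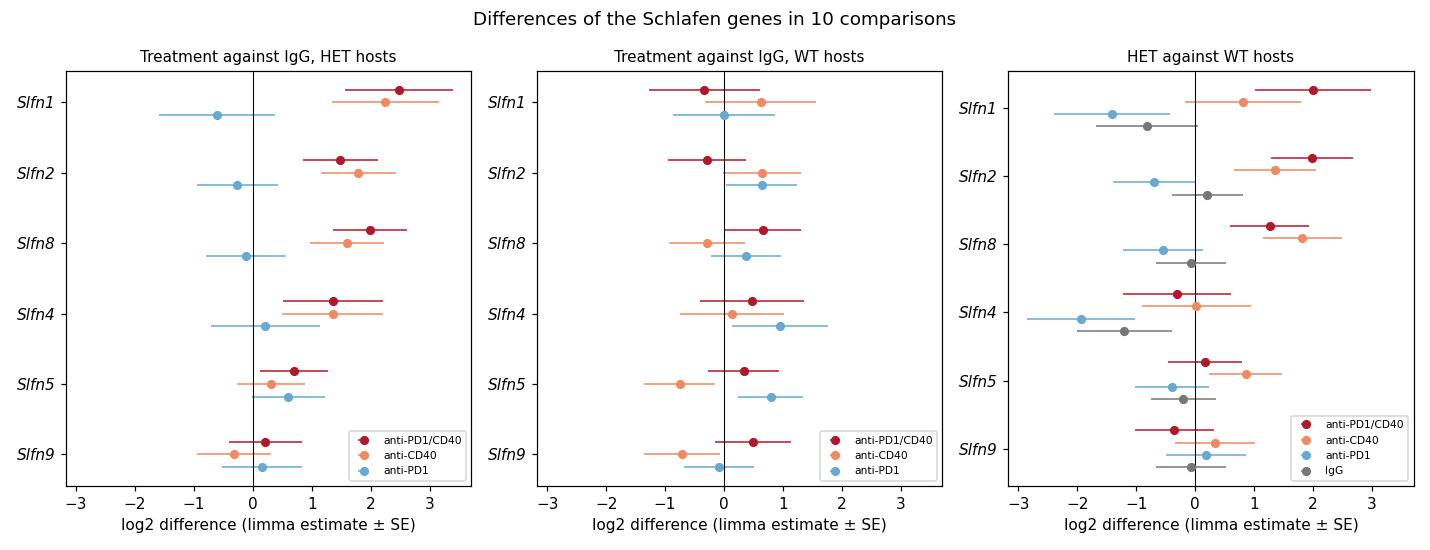
Log2 difference (x axis, limma estimate with its standard error) of each Schlafen gene (y axis) for the treatments against IgG in HET hosts (left), in WT hosts (middle) and for HET against WT hosts under each treatment (right). Slfn1, Slfn2, Slfn8 and Slfn4 lie to the right of 0 with the combination and anti-CD40 in HET hosts, between 1.35 and 2.48, and none of the points passed an adjusted p of 0.05.

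Anti-PD1 in HET hosts, against HET IgG, gave 3 members higher and 3 lower. Their differences ran from -0.61 (Slfn1) to 0.60 (Slfn5). No member had an unadjusted p under 0.05, against 0.96% of all genes. Within L7, 3 anti-PD1 libraries differed from the same 2 IgG libraries by -0.12 (Slfn2) to 1.11 (Slfn4). In WT hosts no treatment gave a member difference of 1 or an unadjusted p under 0.05. All WT IgG libraries are of the number L5, and all WT anti-CD40 and combination libraries of L6. These 2 treatments and the L number therefore cannot be told apart in WT hosts. With the combination 4 members were higher and 2 lower, between -0.34 and 0.66, against 0.413% of all genes at an unadjusted p under 0.05. With anti-CD40 3 were higher and 3 lower, between -0.75 and 0.65, against 5.18% of all genes. With anti-PD1 4 were higher and 2 lower, between -0.09 and 0.95, against 2.75% of all genes. Within the number L5, the mean log2 of 3 WT anti-PD1 libraries minus that of the 5 WT IgG libraries was 1.20 for Slfn2, 1.23 for Slfn4, 1.07 for Slfn5 and 0.74 for both Slfn1 and Slfn8, while Slfn9 was at -0.24.

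HET and WT hosts were then compared under each treatment, which asks whether the host allele went with a different level. With the combination, Slfn2 stood higher in HET hosts by 1.99 ± 0.69 (limma, adjusted p = 0.669), Slfn1 by 2.01 ± 0.98 (limma, adjusted p = 0.823) and Slfn8 by 1.26 ± 0.68 (limma, adjusted p = 0.823). Slfn1 and Slfn2 did not overlap between HET and WT combination tumors, 2 of 6 members, against 6.76% of all genes. One member, Slfn2, had an unadjusted p under 0.05 and was higher, against 4.13% of all genes. Slfn2 ranged over 1.52 to 2.33 when each library was left out in turn, and Slfn1 over 1.52 to 2.51. With the L number in the model Slfn2 was at 0.92, Slfn1 at 1.47 and Slfn8 at 1.00. Cell type markers also stood higher in HET than in WT combination tumors. All 12 leukocyte genes did (median 1.35, 8 with an unadjusted p under 0.05), as did all 14 monocyte and macrophage genes (median 1.64, 9), all 12 keratinocyte genes (median 4.12, 8), all 10 skeletal muscle genes (median 3.17, 7) and all 5 adipocyte genes (median 3.42, 5).

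With anti-CD40, all 6 members stood higher in HET than in WT hosts (median 0.84, against -0.02 for all genes). Slfn8 did so by 1.82 ± 0.68 (limma, adjusted p = 0.775) without overlap, against 3.17% of all genes at an unadjusted p under 0.05 and higher, and 2.36% higher without overlap. Without WT anti-CD40 replicate 1, at 0.375 CPM, the Slfn8 difference was 1.19. Slfn2 stood at 1.35 ± 0.69 (limma, adjusted p = 1.00). Without WT anti-CD40 replicate 1 the Slfn2 difference was 0.78, and without WT anti-CD40 replicate 2 it was 2.06. In the same comparison 11 of 12 leukocyte genes were higher (median 1.13, 7 with an unadjusted p under 0.05), as were 13 of 14 monocyte and macrophage genes (median 1.60, 7) and all 10 muscle genes (median 3.67, 8). The keratinocyte genes were lower in 9 of 12 (median -0.72, 0 with an unadjusted p under 0.05). With the keratinocyte and muscle scores in the model, the host differences were 0.84 (Slfn2), 1.02 (Slfn1) and 0.82 (Slfn8) with the combination, and 1.31 (Slfn8) and 1.13 (Slfn2) with anti-CD40.

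With anti-PD1, 5 of 6 members were lower in HET than in WT hosts, with a median of -0.62, against 0.02 for all genes. Slfn4 stood at -1.94 ± 0.92 (limma, adjusted p = 1.00), with 0.532 to 0.668 CPM in HET and 1.38 to 4.05 CPM in WT tumors and no overlap. The share of all genes at an unadjusted p under 0.05 and lower was 1.21%, and 2.12% were lower without overlap. With the L number in the model, the Slfn4 difference was -0.13. Slfn1 stood at -1.42 ± 0.98 (limma, adjusted p = 1.00), at -2.17 without WT anti-PD1 replicate 4 and at -0.67 without HET anti-PD1 replicate 2. It turned to 2.01 with the L number in the model. All 9 fibroblast genes were lower in the same comparison (median -1.32), 5 of them with an unadjusted p under 0.05. So were all 7 neutrophil genes (median -1.41, 0 with an unadjusted p under 0.05), 13 of 14 monocyte and macrophage genes (median -0.61, 1), 5 of 6 T cell genes (median -0.79, 2) and 10 of 12 leukocyte genes (median -0.53, 0). With the leukocyte score in the model, Slfn4 was at -1.44 and Slfn1 at -0.63, and the part of the other lists was not tested.

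With IgG, 5 of 6 members were lower in HET than in WT hosts, with no unadjusted p under 0.05, against 2.07% of all genes. Slfn4 stood at -1.20 ± 0.81 (limma, adjusted p = 1.00). Without WT IgG replicate 4, the library with 14.9 CPM of Slfn4, it was at -0.33, and without HET IgG replicate 2 at -0.51. It turned to 0.53 with the L number in the model. All 7 neutrophil genes were also lower in HET IgG tumors (median -1.30, 1 with an unadjusted p under 0.05), and their part in the Slfn4 difference was not tested.

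Whether a treatment difference itself differed between hosts was tested as an interaction, HET minus WT. For the combination the differences were larger in HET hosts by 2.82 ± 1.31 for Slfn1 (limma, adjusted p = 0.990), 1.78 ± 0.92 for Slfn2 (limma, adjusted p = 0.990) and 1.33 ± 0.90 for Slfn8 (limma, adjusted p = 0.990). One member had an unadjusted p under 0.05 and was higher, against 2.43% of all genes. For anti-CD40 all 6 members had a positive interaction, and Slfn8 stood at 1.89 ± 0.90 (limma, adjusted p = 1.00), against 1.48% of all genes at an unadjusted p under 0.05 and higher. Slfn1 was at 1.63 ± 1.31, Slfn2 at 1.15 ± 0.92, Slfn4 at 1.22 ± 1.23 and Slfn5 at 1.06 ± 0.83, each with a limma adjusted p of 1.00 and no unadjusted p under 0.05. For anti-PD1 the members lay between -0.90 and 0.25, with 0 at an unadjusted p under 0.05, against 1.03% of all genes. With the L number in the model, the combination interactions of Slfn1, Slfn2 and Slfn8 turned negative, at -1.17, -1.19 and -0.68. So did the anti-CD40 interactions of Slfn1, Slfn2 and Slfn5, at -1.07, -1.13 and -0.19, and that of Slfn8 fell to 0.56. In this model the WT part of these interactions rests on WT anti-PD1 replicate 4. That library alone ties L5, the number of all WT IgG libraries, to L6, that of the WT anti-CD40 and combination libraries. Single libraries moved the anti-CD40 interactions. Without HET IgG replicate 2 they were 0.93 (Slfn1), 0.53 (Slfn4) and 0.54 (Slfn5), and the combination interaction of Slfn8 was 0.75. Without HET anti-CD40 replicate 3 they were 1.01 (Slfn1) and 0.74 (Slfn2), and without HET anti-CD40 replicate 4 that of Slfn5 was 1.65. Without WT anti-CD40 replicate 1 they were 0.57 (Slfn2) and 1.26 (Slfn8), and without WT anti-CD40 replicate 2 they were 1.85 (Slfn2) and 0.63 (Slfn5). Without WT IgG replicate 4 they were 0.94 (Slfn1) and 0.36 (Slfn4).

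The other genes of the pathway were read from lists of 11 type I interferon receptor and signalling genes, 22 type I interferon induced genes and 17 interferon-γ receptor and induced genes. In HET combination tumors against HET IgG, 15 of 17 interferon-γ genes stood higher (median 1.64), 12 of them with an unadjusted p under 0.05. Irgm1, an interferon-γ induced GTPase, stood at 1.13 ± 0.45 (SE), and Ifngr2, a receptor chain, at 0.21 ± 0.17. Of the type I induced genes 21 of 22 were higher (median 0.63), 9 with an unadjusted p under 0.05, with Bst2, a tether of budding virus, at 0.71 ± 0.34 and Rsad2, the antiviral enzyme viperin, at 0.03 ± 0.32. Of the type I signalling genes 8 of 11 were higher (median 0.23), with the receptor chain Ifnar1 at -0.27 ± 0.25 and the kinase Jak1 at -0.15 ± 0.18. None of these list genes passed an adjusted p of 0.05.

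With anti-CD40 in HET hosts 16 of 17 interferon-γ genes stood higher (median 1.52), 12 with an unadjusted p under 0.05, and Irgm1 was at 1.22 ± 0.45 (SE). The type I induced genes were higher in 19 of 22 (median 0.33), 6 with an unadjusted p under 0.05. With anti-PD1 in HET hosts, 22 of 22 type I induced genes were higher than with IgG (median 0.34, 1 with an unadjusted p under 0.05). In WT hosts 21 of 22 were higher with the combination (median 0.38) and 22 of 22 with anti-PD1 (median 0.20). With WT anti-CD40 5 of 22 were higher (median -0.29). Against WT anti-CD40 tumors, HET anti-CD40 tumors had 17 of 17 interferon-γ genes higher (median 1.47) and 22 of 22 type I induced genes (median 0.65). Against WT combination tumors, HET combination tumors had 15 of 17 interferon-γ genes higher (median 1.15) and 19 of 22 type I induced genes (median 0.26). The difference between the Schlafen genes and these lists was not tested.

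Markers of immune cells moved with the same comparisons. In HET combination tumors against HET IgG all 12 leukocyte genes stood higher (median 1.20), 6 with an unadjusted p under 0.05, and all 14 monocyte and macrophage genes did (median 1.45), 10 with an unadjusted p under 0.05. In HET anti-CD40 tumors all 12 leukocyte genes (median 1.32, 9 with an unadjusted p under 0.05) and all 14 monocyte and macrophage genes (median 1.56, 10 with an unadjusted p under 0.05) stood higher than in HET IgG tumors. Lyz2, the lysozyme of myeloid cells, was at 1.92 ± 0.65 with the combination and 1.98 ± 0.65 with anti-CD40 (SE). The leukocyte genes summed to 417 to 755 CPM in HET combination, 473 to 881 CPM in HET anti-CD40 and 419 to 536 CPM in HET IgG tumors, with no marker at 0 in a group. In WT hosts they summed to 379 to 463 CPM (combination), 449 to 726 CPM (anti-CD40), 400 to 664 CPM (anti-PD1) and 348 to 497 CPM (IgG). In HET anti-PD1 tumors they summed to 405 to 465 CPM.

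Markers of the tissue around a tumor moved too. The 12 keratinocyte genes all stood higher in HET combination (median 3.60) and in HET anti-CD40 tumors (median 3.53) than in HET IgG tumors, as did all 10 skeletal muscle genes (medians 2.31 and 2.64). All 9 fibroblast genes stood higher in the same comparisons (medians 1.67 and 1.41, with 7 and 5 at an unadjusted p under 0.05), as did all 5 adipocyte genes (medians 2.96 and 2.25, 5 at an unadjusted p under 0.05 in each). The 3 NK cell genes kept were also higher (medians 2.08 and 2.18, 3 at an unadjusted p under 0.05 in each). The keratinocyte genes summed to 11.9 to 395 CPM in HET combination, 9.47 to 1019 CPM in HET anti-CD40 and 9.89 to 17.8 CPM in HET IgG tumors, where 2 of the 12 had no read. The muscle genes summed to 71.4 to 303 CPM, 40.8 to 482 CPM and 8.58 to 320 CPM in the same groups. When the scores of both lists were covariates, the combination differences were 1.63 (Slfn1), 0.47 (Slfn2) and 1.62 (Slfn8), and the anti-CD40 differences 1.35, 0.78 and 1.18.

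The members differed in how closely they followed the leukocyte genes, and other marker lists, over the 30 libraries. The Pearson correlations given here describe these libraries, which share depth and groups, and carry no test. The log2 value of Slfn2 had r = 0.95 with the leukocyte score, Slfn1 0.79 and Slfn8 0.74. Slfn4 had 0.43, Slfn5 0.12 and Slfn9 -0.25. Other scores gave similar values. With the monocyte and macrophage score Slfn2 had 0.95, Slfn1 0.83 and Slfn8 0.79, and with the fibroblast score 0.79, 0.79 and 0.69. In the same order these genes had 0.87, 0.78 and 0.75 with the T cell score. They had 0.86, 0.73 and 0.735 with the NK cell score and 0.87, 0.69 and 0.70 with the dendritic cell score. With the interferon-γ score Slfn8 had 0.80, Slfn2 0.75 and Slfn1 0.68. With the type I induced score Slfn8 had 0.68, Slfn5 0.58, Slfn1 0.43, Slfn2 0.39, Slfn4 0.30 and Slfn9 0.24. With the endothelial score Slfn8 had 0.69, Slfn2 0.585, Slfn5 0.58, Slfn1 0.57, Slfn4 0.51 and Slfn9 0.11. Slfn4 had 0.60 with the fibroblast score. With the neutrophil score Slfn4 had 0.58, against 0.69 for both Slfn1 and Slfn2. Among the members, Slfn1 and Slfn8 (r = 0.82), Slfn1 and Slfn2 (0.79) and Slfn5 and Slfn9 (0.76, Spearman's rho 0.49) were most alike, and Slfn2 and Slfn9 were least so (-0.41). With the keratinocyte score Slfn9 had r = -0.71, Slfn5 -0.55, Slfn4 -0.07, Slfn8 0.27, Slfn1 0.48 and Slfn2 0.67.

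**Figure D3:**
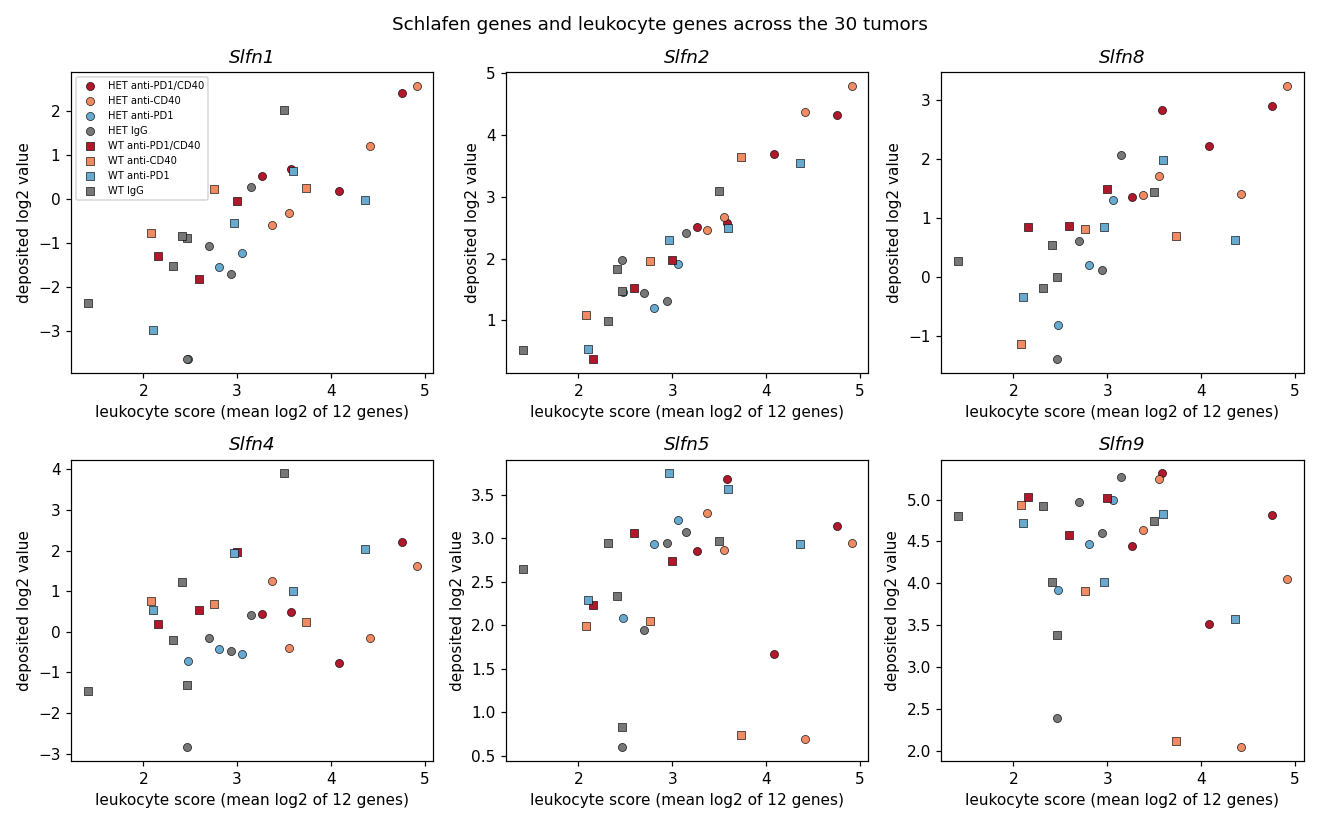
Deposited log2 value of each Schlafen gene (y axis) against the leukocyte score, the mean log2 value of 12 leukocyte genes (x axis), in 30 libraries, with circles for HET and squares for WT hosts. Slfn2 lies close to a line (r = 0.95), Slfn1 and Slfn8 follow more loosely, and Slfn5 and Slfn9 have r = 0.12 and -0.25.

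The genes most like each member over the 30 libraries were named by rank of Pearson r. Slfn2 was nearest to Coro1a (0.97), an actin regulator of leukocytes, Cd52 (0.96), Fcer1g (0.96), Tgfbi (0.96) and Spi1 (0.96), the gene of PU.1. Slfn1 was nearest to the monocyte chemokine receptor gene Ccr2 (0.91), then to Ifi204, Pyhin1, Nfam1 and Fgd3 (0.89 to 0.91). Among the genes most like Slfn8 were Pyhin1, Ptprc (the leukocyte antigen CD45), Klra2 and Tm6sf1 (0.88 each). Among those most like Slfn4 were Chst11, the G-CSF receptor gene Csf3r, Ccl2 and Nos2 (0.76 to 0.79). Slfn5 was nearest to 9930111J21Rik2 (0.90), PCDHGB6 (0.86), the antiviral gene Oas2 (0.85), Piezo2 and Nid1 (0.84 each). Slfn9 was nearest to Mdn1, Ankrd26, Cep192, Daam1 and Eri2 (0.93 to 0.94), none of which is in the interferon or cell type lists.

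With the leukocyte score as a covariate in the limma model, the HET differences from IgG were smaller. For the combination they were 0.66 ± 0.63 (Slfn1), -0.021 ± 0.28 (Slfn2), 0.20 ± 0.82 (Slfn4) and 1.04 ± 0.56 (Slfn8; limma, adjusted p = 1.00). For anti-CD40 they were 0.19 ± 0.65 (Slfn1), 0.09 ± 0.28 (Slfn2), 0.05 ± 0.84 (Slfn4) and 0.52 ± 0.58 (Slfn8). Between hosts, the combination difference was 0.17 ± 0.30 for Slfn2, -0.19 ± 0.70 for Slfn1 and 0.12 for Slfn8. The anti-CD40 difference between hosts was -0.29 ± 0.30 for Slfn2 and 0.78 ± 0.61 for Slfn8. The score contains Cd52, Coro1a and Ptprc, which are among the genes most like Slfn2 and Slfn8, and it is itself higher in the treated HET groups.

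**Figure D4:**
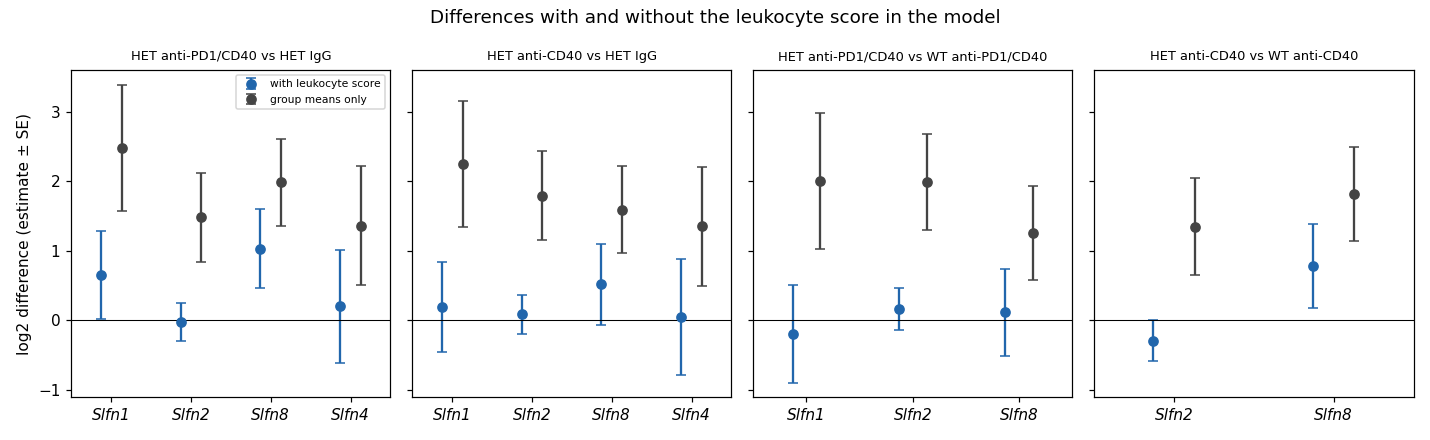
Log2 difference (y axis, limma estimate with its standard error) of Schlafen genes in 4 comparisons, with the leukocyte score in the model (blue) and with group means only (dark). The values with the score are lower in each pair, and Slfn2 lies between -0.29 and 0.17 with it, against 1.35 to 1.99 without it.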

How the data were processed

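The authors deposited 1 table of log2 CPM (counts scaled to library size), with 1 column a library and 1 row a gene, named by Ensembl identifier and symbol. STAR, edgeR and mm10 are named in the submitters' processing notes, without versions. The annotation release, strandedness, read length and the assignment of shared reads are not given in the sources used here. From the values, a prior count scaled to library size underlies each log2 value, so CPM and whole reads could be recovered.

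A gene was kept where its log2 value exceeded 0 in 3 or more libraries. The test was limma 3.58.1 (intensity trend, R 4.3.3), with 1 mean a group and all 30 libraries in the fit. The p-values were adjusted by Benjamini-Hochberg over the 15002 genes kept. The test was checked on simulated data. Alternatives were voom on recovered reads, other filters, a pseudocount of 1 CPM, quantile normalization, only the groups compared, library weights, a replicate block, the L number or gene list scores as covariates, and leaving out each library.

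All 6 members are named in every library. A member difference is reported at an unadjusted p under 0.05 or a log2 difference of at least 1. The 5 genes with the highest Pearson r to each member, and up to 3 most abundant genes of a list, may be named. The members and lists were chosen with earlier results of these data known. Exon lengths came from GENCODE vM21, and promoters from RefSeq (GRCm38.p6). Some genes that the naming rule selects are not reported here.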

Additional observations from a re-analysis of the deposited data

Results flagged for a closer look

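Slfn5 in HET anti-CD40 replicate 4 lay far below the other 3 libraries of its group, at a log2 value of 0.68 (1.53 CPM), against 7.20 to 9.72 CPM in the others. Its gap to the nearest library was 0.836 of the group's range, above Dixon's critical value of 0.829 for 4 samples. Slfn9 was also lowest in that library, at 4.04 CPM, and its keratinocyte score was 4.80. Of 30 member and group combinations examined in this way 1 stood out, and chance gives about 1 in 20.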

How the results depend on the processing

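Of 538 alternative values for the 24 member differences, 526 kept their direction and their side of an adjusted p of 0.05, and the smallest adjusted p was 0.073, for Slfn2 in HET anti-CD40 tumors against HET IgG with library weights. The 12 that changed direction follow, and the cause was not tested. With the L number as a covariate, Slfn4 between HET and WT IgG was 0.53 and Slfn1 between HET and WT anti-PD1 was 2.01. Both values rest on WT anti-PD1 replicate 4 and HET IgG replicate 1. The anti-CD40 interactions with that covariate were -1.07 (Slfn1), -1.13 (Slfn2) and -0.19 (Slfn5), and the combination interactions -1.17 (Slfn1), -1.19 (Slfn2) and -0.68 (Slfn8). With the leukocyte score as a covariate, Slfn2 was -0.021 in HET combination tumors against HET IgG and -0.29 between HET and WT anti-CD40 tumors, and Slfn1 was -0.19 between HET and WT combination tumors. Without the 4 libraries that stood apart, an alternative chosen after seeing the data, the anti-CD40 interaction of Slfn1 was -0.066.

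Of 282 alternative counts of genes at an adjusted p under 0.05, 275 were also 0. Library weights gave 50 genes for HET anti-PD1 against HET IgG, 60 for HET anti-CD40, 407 for the HET combination and 23 between HET and WT combination tumors, and none of the 24 member differences passed with them. Leaving out each library gave 0 to 1 gene for HET anti-PD1 (1 without HET anti-PD1 replicate 2), 0 to 1 for HET anti-CD40 and 0 to 6 for the HET combination (both highest without HET IgG replicate 4).

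Replicate numbers do not pair the samples by the labels. Deviations of same-numbered libraries of other groups had a median correlation of -0.02 over 94 pairs, against 0.01 over 298 pairs of other numbers. With the replicate number as a block, Slfn2 in HET anti-CD40 tumors stood at 1.79 (limma adjusted p = 0.302) and the block changed no call, with 0 genes called in every comparison. Groups of 3 to 5 libraries, and the 0 to 159 reads a library of Slfn1, limit the precision of every difference given.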
